A study of Mus musculus with 4 samples.

Results

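The peaks described here are the sites of RREB1-3V5 binding that lay between genes and whose nearest annotated gene was protein-coding. They were taken as the rows of the peak table annotated Intergenic with the gene type protein-coding. This gave 399 of the 1933 listed peaks, or 24.3% of the 1640 listed peaks nearest to protein-coding genes. One of the 399, nearest to Dhrsx, lies on an unplaced sequence, and the other 398 on assembled chromosomes are described below as the intergenic peaks. The peaks come from ChIP-seq with an antibody against the V5 tag in whole cerebellum of Tg(PCP2-Rreb1/3V5)20/J mice at 3 weeks of age. The transgene, carried by every animal used, places the Rreb1 V7 coding sequence with 3 V5 tags under the Purkinje cell promoter PCP2. There were 2 ChIP libraries, from 1 female and 1 male, and 2 input libraries. The deposited table merges both animals and gives a position and the nearest gene for each peak, but no read count, height, width or replicate, so depth and the spread between animals are unknown. All intervals and tests below therefore count peaks, not animals.

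RREB1 binds DNA through zinc fingers and can raise or lower the transcription of its target genes. Sites between genes are often enhancers, stretches of DNA that act on a gene start from a distance and are read by several transcription factors at once. In cerebellar neurons, basic helix-loop-helix factors of the NeuroD family are among the best known of these, and they bind short palindrome-like sites called E-boxes. The gene named for an intergenic peak is only the one whose start lies nearest along the chromosome, and the data hold no measure of contact or expression.

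The intergenic peaks fell into 2 sets that differ in sequence. In 352 peaks the 200 bp around the listed position had ordinary to high GC content, and 120 of these held a NeuroD E-box. In the other 46 the window consisted almost wholly of A and T, and no NeuroD E-box, a site that holds C and G, was present. The E-box was searched as CCATCTGC or CCATCTGT on both strands. The 8 windows printed here are all on the plus strand of mm10, with E-boxes in capitals. They are the first 8 when the peaks are ranked by their number of matches and then by how close a match is to the listed position. This ranking favours central matches, so the 8 are examples and do not show where the sites sit in general.

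Tafa5, chr15:87200369-87200568: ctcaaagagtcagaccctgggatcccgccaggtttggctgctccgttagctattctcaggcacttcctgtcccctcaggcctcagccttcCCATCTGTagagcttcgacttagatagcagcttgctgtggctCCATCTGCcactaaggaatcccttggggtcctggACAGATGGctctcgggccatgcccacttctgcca
Enkur, chr2:21091385-21091584: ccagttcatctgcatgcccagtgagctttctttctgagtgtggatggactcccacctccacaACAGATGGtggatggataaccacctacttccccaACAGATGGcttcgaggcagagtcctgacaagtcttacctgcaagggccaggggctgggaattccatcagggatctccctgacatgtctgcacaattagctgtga
Commd9, chr2:101907677-101907876: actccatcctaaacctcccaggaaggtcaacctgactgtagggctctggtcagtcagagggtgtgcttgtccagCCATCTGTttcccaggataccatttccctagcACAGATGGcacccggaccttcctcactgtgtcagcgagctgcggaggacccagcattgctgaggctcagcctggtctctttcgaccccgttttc
Prom1, chr5:44151792-44151991: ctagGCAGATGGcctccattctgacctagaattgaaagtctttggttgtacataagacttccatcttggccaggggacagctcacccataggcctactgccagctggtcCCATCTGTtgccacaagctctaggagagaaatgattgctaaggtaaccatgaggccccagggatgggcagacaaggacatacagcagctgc
Cox8c, chr12:102908248-102908447: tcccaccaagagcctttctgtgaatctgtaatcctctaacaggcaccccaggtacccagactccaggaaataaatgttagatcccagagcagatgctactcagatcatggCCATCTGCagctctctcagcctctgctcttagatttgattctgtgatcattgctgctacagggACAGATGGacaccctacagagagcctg
Enpp7, chr11:118973069-118973268: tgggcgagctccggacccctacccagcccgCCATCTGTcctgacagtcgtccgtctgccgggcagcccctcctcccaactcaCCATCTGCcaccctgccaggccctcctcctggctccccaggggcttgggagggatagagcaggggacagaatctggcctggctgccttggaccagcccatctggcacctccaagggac
Adamts3, chr5:89991616-89991815: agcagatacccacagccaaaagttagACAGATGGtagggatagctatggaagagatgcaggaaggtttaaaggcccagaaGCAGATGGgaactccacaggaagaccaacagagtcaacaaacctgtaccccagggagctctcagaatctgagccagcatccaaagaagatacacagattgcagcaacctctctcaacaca
Trmt9b, chr8:36519790-36519989: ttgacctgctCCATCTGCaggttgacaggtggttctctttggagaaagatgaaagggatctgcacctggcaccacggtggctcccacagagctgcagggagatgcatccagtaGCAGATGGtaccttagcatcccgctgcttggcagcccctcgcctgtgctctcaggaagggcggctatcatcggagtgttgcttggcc

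The window of Tafa5, which encodes a secreted protein of the brain, was the only one with 3 matches, 344 kb upstream of the gene start. The other 7 held 2 each. They lie near Enkur and Cox8c, which encode a sperm flagellum protein and a subunit of cytochrome oxidase, near Commd9 and near Prom1, the gene of the membrane protein prominin 1. The others belong to Enpp7, which encodes an intestinal sphingomyelinase, Adamts3, which encodes a procollagen protease, and Trmt9b. Pla2g4a, the gene of a cytosolic phospholipase A2, and Cmklr1, the gene of the chemerin receptor, also had 2 matches each, at distances of 250 and 33 kb. These nearest genes range from 9.04 kb (Cox8c) to 344 kb away.

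A NeuroD E-box was present within 100 bp of 120 of the 398 intergenic peaks (30.2%, Wilson 95% interval 25.8 to 34.8%). Over all 1932 listed peaks on assembled chromosomes the share was 22.3%. A regular grid of 555086 intergenic windows nearest to protein-coding genes, 1 every 2 kb, held it in 2.07%, and in 2.38% when the grid was weighted to the GC content of the peaks. Of grid positions 44% lay in soft-masked repeat sequence, against 12.3% of the intergenic peaks. The grid was not limited to sequence where reads map uniquely, whereas the authors dropped reads with several hits. The paper had already found a motif much like that of NEUROD1 de novo in its peaks from these libraries. The excess of the E-box and its place in the peaks are therefore a description and not independent support. One match was found in 103 peaks, 2 in 16 and 3 in 1. In the 17 peaks with more than 1 match, neighbouring matches were a median of 47 bp apart, from 8 to 152 bp, with 10 of 18 pairs on the same strand and 8 on opposite strands. The shorter core CATCTG was present in 186 intergenic peaks (46.7%), against 15.1% of the grid.

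The matches were concentrated at the listed position. Within 25 bp of it there were 2.86 NeuroD E-box matches per kb, from 25 to 50 bp 2.11, from 50 to 100 bp 1.01, and from 100 to 200 bp 0.239. Between 800 and 1000 bp the density was 0.157 per kb. Of the 121 peaks with a match centred within 100 bp, 59 (48.8%) had the nearest match within 25 bp and 95 (78.5%) within 50 bp. Intron peaks had a similar profile, with 3.34 matches per kb within 25 bp, whereas promoter peaks had 0.189.

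**Figure D1:**
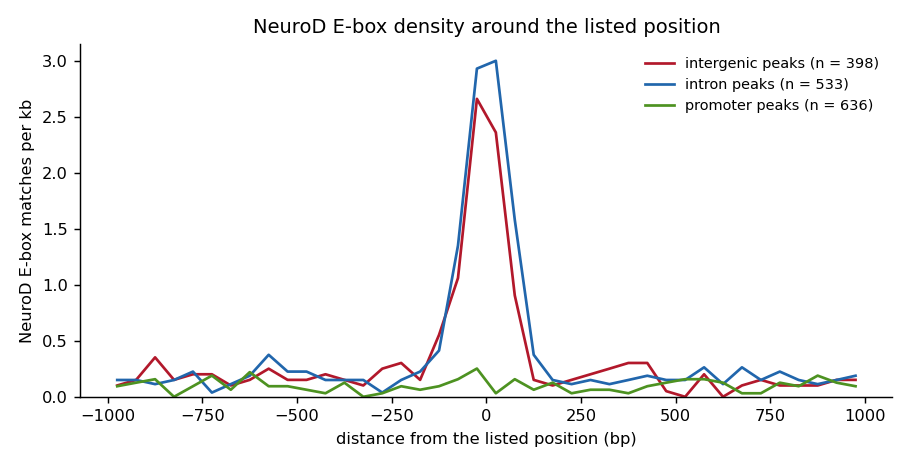
NeuroD E-box matches per kb in bins of 50 bp (vertical axis) against the distance in bp from the listed position (horizontal axis), for intergenic, intron and promoter peaks. The lines for intergenic and intron peaks rise at the centre and return to their flanking level beyond about 150 bp, and the promoter line stays low throughout.

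To see which sequences set the intergenic peaks apart from the other classes, 25 motifs were searched in the same 200 bp, and the peaks were compared with the 533 intron peaks and the 636 promoter peaks of protein-coding genes. Against promoter peaks, 17 of 25 motifs (68.0%) passed the threshold, 11 with a higher and 6 with a lower share in the intergenic peaks (two-sided Fisher's exact test, Benjamini-Hochberg adjusted). The NeuroD E-box was 27.3 percentage points more frequent than in promoter peaks, where 18 of 636 held it (2.83%, interval of the difference 22.7 to 32.1, Fisher's exact adjusted p = 8.76e-36). The site TTGGCA of the NFI factors, which act in the maturation of granule neurons, was present in 137 intergenic peaks (34.4%) and 8.02% of promoter peaks (Fisher's exact adjusted p = 1.99e-25). Its share was 25% over all listed peaks, 9.83% in the grid and 9.01% in the GC-weighted grid. CAGCAGG, a form of the ZIC factor site, was present in 80 (20.1%) against 7.70% (Fisher's exact adjusted p = 2.84e-08), with 15.8% over all listed peaks, 3.52% in the grid and 7.44% in the GC-weighted grid. The E-box CACCTG was present in 114 (28.6%) against 10.7% (Fisher's exact adjusted p = 1.46e-12), with 22.5% over all listed peaks, 11.4% in the grid and 18.6% in the GC-weighted grid.

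Motifs typical of promoters went the other way. GGGCGG, the GC box bound by the Sp factors, was present in 37 intergenic peaks (9.30%) and in 329 promoter peaks (51.7%, Fisher's exact adjusted p = 2.65e-47), with 22.8% over all listed peaks, 1.42% in the grid and 6.62% in the GC-weighted grid. The ETS site CCGGAAG was present in 4 (1.01%) against 116 (18.2%, Fisher's exact adjusted p = 7.66e-21). Its share was 7.4% over all listed peaks, 0.465% in the grid and 1.6% in the GC-weighted grid. The E-box CACGTG was present in 9 (2.26%) against 47 (7.39%, Fisher's exact adjusted p = 7.08e-04). Over all listed peaks it stood at 4.4%, in the grid at 1.69% and in the GC-weighted grid at 2.51%. For these 2 motifs the intergenic share was thus near that of the grid. The core ACCACCC of the site described for RREB1 itself was rare in both classes, with 7 intergenic peaks (1.76%) and 2.04% of promoter peaks, against 1.92% of the grid and 3.62% of the GC-weighted grid. The CTCF motif was present in 8 intergenic peaks (2.01%), 0.0867% of the grid and 0.266% of the GC-weighted grid.

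No motif passed the test between intergenic and intron peaks in these windows. Of 25 motifs, 0 (0%) passed the threshold by Fisher's exact test with Benjamini-Hochberg adjustment, and 4 had an unadjusted p under 0.05. The NeuroD E-box was present in 201 intron peaks (37.7%), a difference of -7.56 points (interval -13.6 to -1.39, Fisher's exact adjusted p = 0.111). In windows of 100 bp it was -2.28 points (-7.73 to 3.32), and the interval also took in 0 among positions outside repeats or given the same class and gene on reassignment. Without windows under 20% GC, a limit set after the data were seen, the difference was -5.32 points (-11.7 to 1.25). The core CATCTG was present in 46.7% of intergenic and 55.5% of intron peaks (-8.80 points, interval -15.2 to -2.31, Fisher's exact adjusted p = 0.101). The other 2 of the 4 motifs were the MEF2 site, in 10.3% of intergenic and 5.82% of intron peaks, and the homeobox site TAATTA, in 12.8% and 6.94%. Over all listed peaks these shares were 5.18% for MEF2 and 5.90% for TAATTA, and in the grid 4.83% and 7.23%. The NFI site was present in 33.2% and the ZIC site in 20.3% of intron peaks, next to 34.4% and 20.1% of intergenic peaks. With windows of 100 bp TAATTA did pass (Fisher's exact adjusted p = 0.00414), and with 400 bp MEF2 did (adjusted p = 0.0446).

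**Figure D2:**
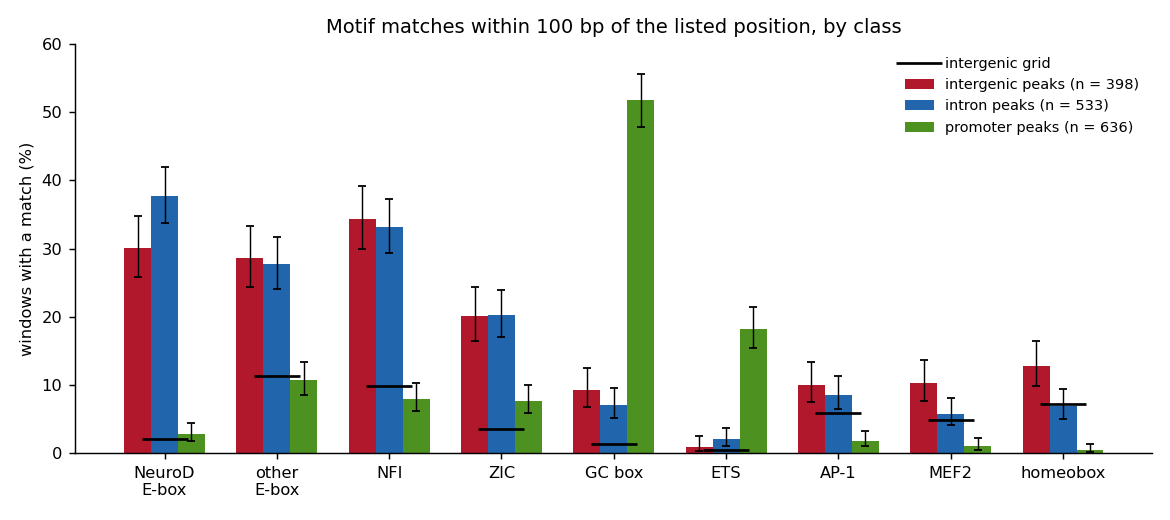
Share of windows with at least 1 match within 100 bp of the listed position (vertical axis, %) for 9 motifs, in intergenic, intron and promoter peaks; error bars are Wilson 95% intervals and short black lines give the intergenic grid. The bar labelled other E-box is CACCTG. Promoter peaks differ most from intergenic peaks at the GC box, with 51.7% against 9.30%, and intergenic and intron bars at the NeuroD E-box, with 30.2% against 37.7%.

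The NeuroD, NFI and ZIC sites occurred side by side in part of the peaks. At least 1 of the 3 was present in all but 149 intergenic peaks (37.4%), whereas 85.2% of the grid held none. One kind was present in 167 (42%), 2 in 76 (19.1%) and all 3 in 6 (1.51%). Intron peaks were much alike: 33.8% held none, 43.7% 1 kind, 20.1% 2 and 2.44% all 3. Of promoter peaks 82.2% held none. The NFI site was present in 41 of 120 peaks with a NeuroD E-box (34.2%) and 96 of 278 without (34.5%). The ZIC site was present in 20 of 120 (16.7%) and 60 of 278 (21.6%), and the Wilson intervals overlap (11.1 to 24.3% and 17.2 to 26.8%). The 278 include the 46 windows of almost only A and T, which held no NFI or ZIC site. These lower both shares without the E-box. In the other 352 peaks, which include all 120 with the E-box, the NFI share was 38.9% and the ZIC share 22.7%. Both are above the shares in peaks with the E-box, and the comparison was not run without the 46.

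GC content showed the 46 windows that stand apart. Their GC ranged from 2 to 18% with a median of 10.5%, and the other 352 ranged from 41 to 72.5%, with no intergenic peak in between. A limit of 20% GC was set after these values were seen, so the counts on each side are a description. It separated 46 of 398 intergenic peaks (11.6%), 19 of the 150 other intergenic peaks (12.7%), 23 of 533 intron peaks (4.32%) and 0 of 636 promoter peaks, where the Wilson interval allows up to 0.60%. In the grid 831 of 555086 windows (0.15%) were under the limit. The 46 lie on 17 chromosomes.

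The AT-rich windows were not runs of a single base. The longest run of 1 base had a median of 4 bp and never exceeded 6, and in 40 of 46 windows the steps AT and TA outnumbered AA and TT, with medians of 50.5% and 29.1% of all steps. The AT-rich stretch around the position, read in 50 bp steps under 25% GC, had a median length of 432 bp, from 202 to 1174 bp. Mean GC was 9.09% in the 50 bp bin centred 25 bp to 1 side of the position and 36.3% in the bin 275 bp to the other side. In the other 352 peaks GC peaked at the position instead, with 54.3% and 44.9% in the same bins. In 37 of the 46 (80.4%) the position lay in soft-masked repeat sequence, against 12 of the other 352 (3.41%). Of the AT-rich grid windows, 72.8% of positions were in repeats, and of the whole grid 44%. Whether repeats play a part in these calls was not tested.

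The windows below, on the plus strand with TAATTA in capitals, are the pair with the lowest GC, at 2 and 4.5%, and the one nearest to Rreb1. They were chosen after their values were seen, to show what such a site looks like.

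Adgrl3, chr5:79538415-79538614: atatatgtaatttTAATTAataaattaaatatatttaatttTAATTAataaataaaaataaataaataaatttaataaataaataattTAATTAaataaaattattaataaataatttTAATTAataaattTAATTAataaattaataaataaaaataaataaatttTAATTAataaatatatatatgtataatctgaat
Rorb, chr19:19442400-19442599: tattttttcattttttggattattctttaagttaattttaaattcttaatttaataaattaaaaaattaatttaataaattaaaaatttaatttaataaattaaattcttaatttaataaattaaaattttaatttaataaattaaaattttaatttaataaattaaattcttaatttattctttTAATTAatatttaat
Rreb1, chr13:37671564-37671763: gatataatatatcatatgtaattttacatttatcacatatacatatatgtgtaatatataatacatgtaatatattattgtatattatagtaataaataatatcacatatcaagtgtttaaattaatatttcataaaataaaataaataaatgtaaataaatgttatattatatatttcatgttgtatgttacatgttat

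Adgrl3 encodes an adhesion receptor of the latrophilin family, and its window is 1482 kb upstream. Rorb encodes a nuclear receptor of the ROR family and had its window 331 kb upstream. Rreb1 itself was the listed gene of an AT-rich peak 154 kb upstream, with 13.5% GC and 86.5% of its window in repeats. When positions were assigned again from RefSeq, that peak was closer to the start of Gm47754, at 90.6 kb, than to Rreb1. Other genes of the AT-rich set were Chrm2, which encodes a muscarinic receptor (10% GC), Kcnj3, which encodes a G protein-gated potassium channel (12%), and the activin receptor gene Acvr2a (7.5%). Genes used mainly outside the brain were among them too, such as the prolactin family gene Prl4a1 (9%), the kallikrein gene Klk4 (9%) and the vomeronasal receptor gene Vmn2r88 (10.5%).

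Motif content followed this split. TAATTA was present in 42 of the 46 AT-rich windows (91.3%) and in 9 of the other 352 (2.56%), and the MEF2 site in 33 (71.7%) and 8 (2.27%). Both consist largely of A and T, and the 23 AT-rich intron windows held TAATTA in 22 and the MEF2 site in 18. AT-rich grid windows held them in 35.3% and 34.1%, but 487 of those 831 were at 18 to 20% GC, where 1 of the 46 lies. Without the AT-rich windows of both classes, TAATTA and MEF2 stood at 2.94% and 2.55% in intron peaks, and 0 of 25 motifs passed. The NFI, ZIC and NeuroD sites were in none of the 46. These sites hold G and C, so a low GC limit leaves little room for them. AT-rich grid windows held them in 1.44%, 0% and 0.241%, in that order. Among the remaining 352 intergenic peaks the NeuroD E-box share was 34.1%, the NFI share 38.9% and the ZIC share 22.7%. In the remaining 510 intron peaks these shares were 39.4%, 34.7% and 21.2%.

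**Figure D3:**
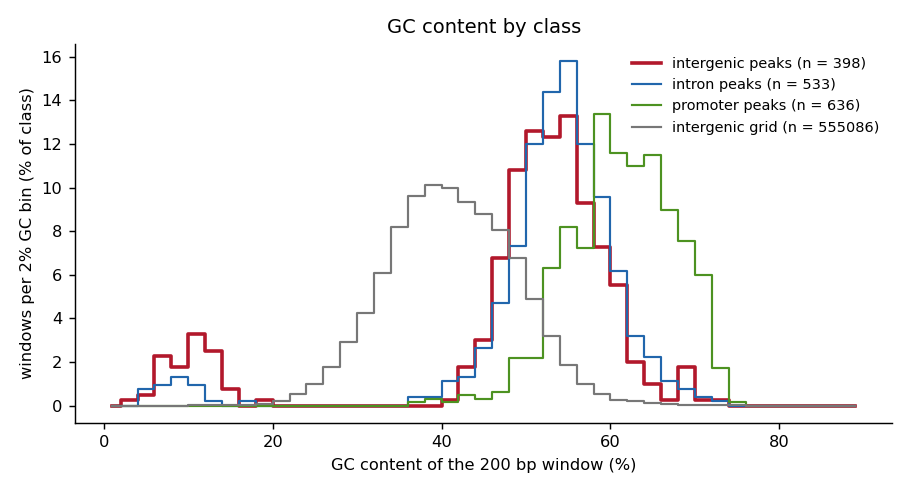
Share of windows (vertical axis, % of each class per 2% GC bin) against the GC content of the 200 bp window (horizontal axis, %), for intergenic, intron and promoter peaks and the intergenic grid. Intergenic peaks form 2 separate modes, at 2 to 18% and at 41 to 72.5%, and the grid is centred at a median of 40.5%.

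Over all 398 peaks the mean GC content was 48.5% ± 14.9 (SD), against 52.2% ± 10.7 in intron peaks, a difference of -3.72 points (interval -5.44 to -2, permutation p = 2.00e-05). Among positions outside repeats it was -1.54 points (-2.58 to -0.503). Promoter peaks had 61% ± 6.29, a difference of -12.5 points (permutation p = 1.00e-05, the smallest that 100000 resamples can give). The difference from introns did not pass the threshold without the AT-rich windows. When those of both classes were left out, the means were 53.5% ± 5.48 and 54.2% ± 5.56, a difference of -0.661 points (permutation p = 0.083). The difference from promoters was -7.47 points without them and kept the smallest p. A CpG ratio of 0.6 or more, 1 of the common limits for CpG islands, was found in 24 intergenic peaks (6.03%), 3.38% of intron peaks and 78.5% of promoter peaks. The 24 include the AT-rich windows of Atxn7l3b, Vmn2r88 and St8sia3, each at 10.5% GC, where few C and G bases set the ratio. The difference from promoters passed Fisher's exact test (adjusted p = 1.93e-128) and that from introns did not (adjusted p = 0.142).

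Distances to the listed start ran from 1.03 kb, just outside the promoter class that ends 1 kb upstream, to 1988 kb. The median was 54.2 kb and the quartiles were 18.2 and 145 kb. Intron peaks had a median of 24.8 kb from the start, and intergenic grid positions one of 79 kb. Within 5 kb there were 38 intergenic peaks (9.55%, against 5.86% of the grid), and beyond 200 kb there were 49 up to 500 kb and 22 farther (12.3% and 5.53%, against 17.8% and 11.8% of the grid). Within the territory of their own gene, the stretch nearest to its start, the peaks were split about evenly around its median position. In 378 genes with at least 5 grid positions, 175 peaks (46.3%, interval 41.3 to 51.3%) were closer to the start than the median position of that territory. The median peak lay at percentile 53.3 of its territory, counted from the start. The decile closest to the start held 26 of the 378 peaks (6.88%, interval 4.74 to 9.89%), less than an even spread would place there. The higher share than the grid within 5 kb was thus not matched by an excess near the start within territories. The table lists 1 peak per gene, so these distances describe the listed peak and not all peaks of a gene.

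The 12 nearest peaks were all upstream, as were 90.2% of grid positions within 5 kb of a start. They belong to Rap2a, a small GTPase gene of the Ras family, at 1.03 kb, Phf12, which encodes a chromatin protein, Aanat, the gene of the enzyme that acetylates serotonin on the way to melatonin, and Chid1. Mex3b encodes an RNA-binding protein and had its peak at 1.24 kb in a window of 69.5% GC. Tmc7 and Cd300ld3 followed at 1.36 and 1.41 kb. Ndp, which encodes norrin, a ligand of frizzled receptors, had a peak at 1.56 kb with a NeuroD E-box and an NFI site. H2bfm, a histone H2B gene, was the AT-rich one of the 12, at 1.70 kb with 7.5% GC. The last of the 12 were Trim8, a ubiquitin ligase gene, Npvf, a neuropeptide gene, and Myt1l, a zinc finger factor gene of neurons, at 1.74, 1.77 and 2.08 kb. A NeuroD E-box was present in 3 of the 12.

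The 12 farthest peaks were divided evenly between the sides. Olfm4, an olfactomedin gene, was the farthest, with its start 1988 kb away and a NeuroD E-box and an NFI site at the peak. Adgrl3 at 1482 kb, Ncam2 at 1460 kb and Cntnap5a at 1354 kb encode cell adhesion proteins, and Rapgef2 at 1248 kb encodes an activator of Rap GTPases. Edil3, an extracellular matrix gene, followed at 1016 kb and Acvr2a at 866 kb. Cps1, the gene of the first enzyme of the urea cycle, was at 725 kb, the innate immune receptor gene Tlr4 at 695 kb and the frizzled receptor gene Fzd8 at 659 kb. Kctd8, which encodes an auxiliary subunit of GABA-B receptors, was at 636 kb. AT-rich windows were 3 of these 12, and 2 held a NeuroD E-box.

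Few sequence features separated peaks near the start from those far from it. Near was set at 50 kb or less, with 187 peaks, and far above it, with 211. The NeuroD E-box was present in 53 near (28.3%) and 67 far peaks (31.8%), a difference of -3.41 points (interval -12.3 to 5.63, Fisher's exact adjusted p = 0.774). By distance the share was 31.6% up to 5 kb, 23.5% from 5 to 20 kb, 30.9% to 50 kb, 35.3% to 100 kb, 27.8% to 200 kb, 38.8% to 500 kb and 18.2% beyond, with wide intervals such as 7.31 to 38.5% in the last group of 22 peaks. The share neither rose nor fell steadily with distance. Of 25 motifs, 0 (0%) passed Fisher's exact test after adjustment and 1 had an unadjusted p under 0.05, the GC box, with 26 near (13.9%) and 11 far peaks (5.21%, adjusted p = 0.0794). A CpG ratio of 0.6 or more was more frequent near the start, in 19 (10.2%) against 5 (2.37%, Fisher's exact adjusted p = 0.00416). The AT-rich windows of Atxn7l3b and Vmn2r88 are among the 19 and that of St8sia3 among the 5, and the difference was not tested without them. Of near peaks 18 (9.63%) lay within 1 kb of a GENCODE transcript start, against 6 (2.84%) of far peaks.

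Mean GC was 49.8% in near and 47.4% in far peaks over all windows (permutation p = 0.0988). Without the AT-rich windows, which were 23 in each set, it was 55.3% ± 5.51 (n = 164) in near and 52% ± 5.01 (n = 188) in far peaks, a difference of 3.23 points (interval 2.12 to 4.33, permutation p = 1.00e-05, the smallest possible). This setting was chosen after the data were seen.

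Upstream of the start there were 262 peaks (65.8%, interval 61 to 70.3%) and downstream, beyond the end of the gene, 136. Intergenic grid positions were upstream in 62.6%. For the 378 genes with a measured territory, 64.3% of the territory was upstream on average, against 65.6% of their peaks. The upstream share of the peaks fell from 94.7% within 5 kb to 45.5% beyond 500 kb. That of the grid fell from 90.2% to 52.7%, and the difference between these trends was not tested. Genes on the plus and the minus strand had upstream shares of 66.2% and 65.5% (difference 0.713 points, interval -8.53 to 9.97, Fisher's exact p = 0.916). Upstream peaks had a median distance of 36 kb and downstream peaks one of 101 kb, and the grid medians were 57.1 and 124 kb.

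No motif separated the sides after adjustment. A NeuroD E-box was present in 73 upstream (27.9%) and 47 downstream peaks (34.6%), a difference of -6.70 points (interval -16.4 to 2.71, Fisher's exact adjusted p = 1). Of 25 motifs, 0 (0%) passed Fisher's exact test after adjustment and 1 had an unadjusted p under 0.05, GTTGCCA, a site of the RFX factors (6.11% and 1.47%). Mean GC was 48.1% and 49.4% (permutation p = 0.392). AT-rich windows were 35 of 262 upstream (13.4%, interval 9.76 to 18%) and 11 of 136 downstream (8.09%, 4.58 to 13.9%).

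**Figure D4:**
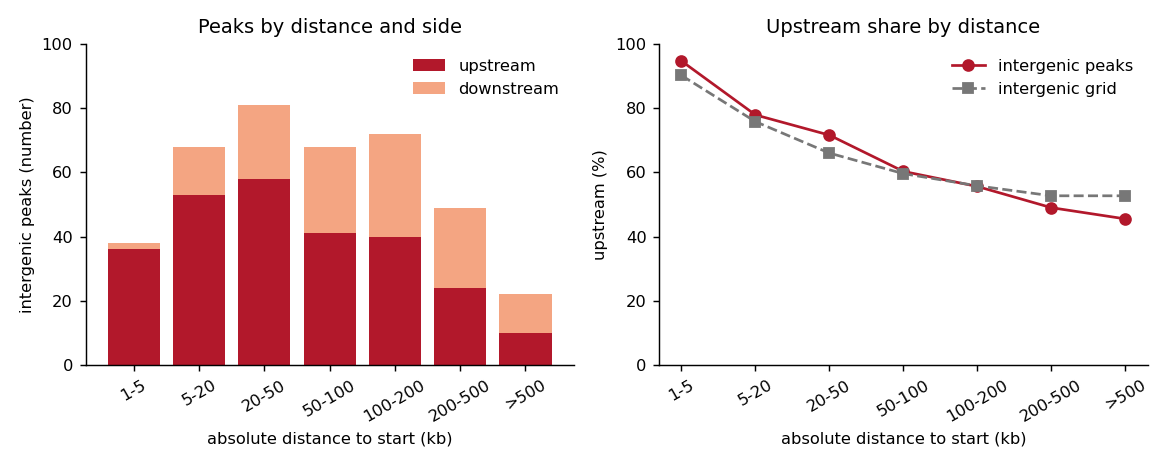
Left, number of intergenic peaks by absolute distance to the listed start in kb, stacked as upstream and downstream. Right, upstream share in % for the same distance classes in the peaks and in the intergenic grid; both lines fall from above 90% to about 50%.

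How far the listed gene stands alone varied. Reassignment from RefSeq gave the same gene for 359 of 398 peaks (90.2%) and an intergenic position for 387. Of the genes named here, Rreb1, Tafa5, Mycn, Ppfia4, Cdh20, Acvr2a and Edil3 were not given again, or not as intergenic. Among the 359, the start of another gene lay within 1.5 times the distance in 142 (39.6%) and at 5 times the distance or more in 68 (18.9%). By the GENCODE annotation 63 peaks (15.8%) lay inside a gene, 22 of them in a protein-coding one (5.53% of all 398), against 12% and 4.75% of the grid. Some of the peaks listed as intergenic are therefore genic in another annotation. Peak numbers without a row, which belong to peaks that are not listed, stood beside 287 peaks (72.1%). That was 3.63 points more than for intron peaks (interval -2.34 to 9.46, adjusted p = 0.248) and 21.5 points more than for promoter peaks (15.5 to 27.2, Fisher's exact, adjusted p = 1.44e-11).

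The peaks were spread over all autosomes and X, from 39 on chromosome 2 to 5 on X (1.26%, against 8.85% of the grid), and 3 of the 5 on X were AT-rich. There was 0 on Y, which held 6.42% of the grid. The nearest other listed peak was a median of 419 kb away. Linking peaks within 500 kb gave 40 groups with 82 peaks. The largest held 3 peaks each. One, on chromosome 7, spans 157 kb beside Tbcb, a tubulin-folding cofactor gene, Sdhaf1 and Lrfn3. The other, on chromosome 6, spans 692 kb beside Hdac11, Wnt7a and Grip2, which encode a histone deacetylase, a Wnt ligand and a scaffold of glutamate receptors, and 2 of its 3 peaks held a NeuroD E-box. The next were pairs, Ptgds and Lcn12 within 6.61 kb on chromosome 2, Stmnd1 and Rbm24 within 15 kb on chromosome 13 and Tab1 and Mgat3 within 41.6 kb on chromosome 15.

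Known genes of the cerebellum were read from 11 lists. Their counts are set against the 24.3% of listed protein-coding genes whose peak is intergenic. Distances and sides are set against the median of 54.2 kb and the upstream share of 65.8% over all intergenic peaks. Of 10 granule neuron transcription factor genes with a listed peak, from a list of 35, 4 had it between genes. Their median distance was 108 kb. Klf9, a Kruppel-like factor gene, had a peak 4.55 kb upstream with a NeuroD E-box. Mycn, which acts in granule cell precursors, had one 37 kb downstream without it. Zic4 had one 178 kb downstream, and Etv1, an ETS factor gene, one 534 kb downstream with the E-box. Of 17 other developmental transcription factor genes 11 were intergenic (64.7%), 10 of them upstream, at a median of 136 kb, and 1 of the 11 held a NeuroD E-box. Among the nearest were Myt1l at 2.08 kb, Sox4, an SRY-related factor gene, at 6.01 kb, Egr4 at 30.9 kb, Klf7 at 105 kb and Tshz1 at 136 kb.

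Of 27 other granule neuron marker genes with a listed peak, from a list of 43, 8 were intergenic (29.6%). These lay at a median of 27.3 kb, and 14 of the 27 had their peak in an intron. Rims3, an active zone gene, was at 3.61 kb, Calb2, the calretinin gene, at 6.88 kb and Snap25, a SNARE of synaptic vesicle fusion, at 9.86 kb with a NeuroD E-box. Tiam1, a Rac activator gene, was at 20 kb, Cadps2, which encodes a dense core vesicle priming protein, at 34.6 kb, and Nrep at 37.8 kb with the E-box. Of 8 Purkinje cell marker genes with a listed peak, from a list of 49, 1 was intergenic, Auts2, at 467 kb upstream. The other 7 had it in an intron. Of 24 genes of synaptic vesicles and release 8 were intergenic (33.3%), each of them upstream, at a median of 35.2 kb. Besides Rims3, Snap25 and Cadps2 they were led by Ppfia4, a liprin gene, at 3.12 kb, Cplx2, the complexin 2 gene, at 35.9 kb with a NeuroD E-box, and Sh3gl2, an endophilin gene, at 41.9 kb.

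Adhesion and guidance genes lay farther out. Of 40 with a listed peak 11 were intergenic (27.5%), at a median of 235 kb, and 9 of the 11 were beyond 50 kb. The nearest was Rtn4r, the Nogo receptor gene, at 3.43 kb with a NeuroD E-box. Plxna2, a semaphorin receptor gene, followed at 41.4 kb, Lrrn1 at 85.2 kb, Efnb2, an ephrin gene, at 172 kb, Cntn6, a contactin gene, at 180 kb and Cdh20, a cadherin gene, at 235 kb. Of 24 ion channel genes 6 were intergenic (25%), namely Ano3 at 35.7 kb, Kcnq3 at 57.5 kb, Kcnk12 at 74.6 kb, Cacna1e at 136 kb, Kcnk9 at 187 kb and Kcnj3 at 272 kb. Kcnk9, a leak potassium channel gene, and Ano3 held a NeuroD E-box.

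Of 12 neurotransmitter receptor genes 6 were intergenic (50%), at a median of 65.3 kb. Adra1d, an adrenergic receptor gene, was at 20.5 kb downstream with 2 NeuroD E-boxes, and Cnr1, the cannabinoid receptor gene, at 34.1 kb. Chrm2 was at 65.5 kb, Gabrb2, a GABA-A receptor gene, at 334 kb with the E-box, and Grik2, a kainate receptor gene, at 349 kb. Of 26 microtubule genes 3 were intergenic (11.5%), Tbcb at 14.4 kb, the kinesin gene Kif5b at 40.9 kb and Mtcl1 at 124 kb, none with the E-box, while 12 had their peak in an intron and 9 at the promoter. Of 20 genes of growth factor and morphogen signalling 9 were intergenic (45%), led by Dusp5, a MAP kinase phosphatase gene, at 28.6 kb, Ntf3, the neurotrophin 3 gene, at 33.4 kb and Wnt7a at 51.5 kb, each with a NeuroD E-box. The fibroblast growth factor receptor gene Fgfr2 at 53.1 kb, Boc, a hedgehog co-receptor gene, at 74 kb and Fzd7 at 105 kb had none. Of 54 glial, vascular and meningeal markers 3 had a listed peak, and 2 were intergenic. These were Mbp, the myelin basic protein gene, at 20.5 kb and Slc1a3, the astrocyte glutamate transporter gene, at 81.5 kb with the E-box. The lists are small, and no list was tested.

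**Figure D5:**
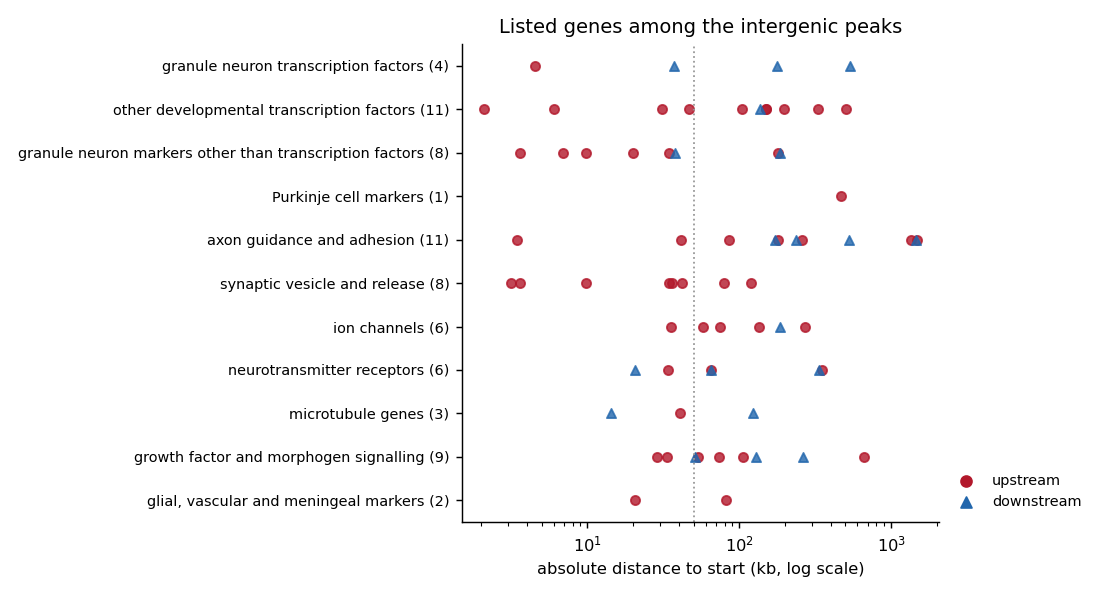
Absolute distance to the listed start in kb (horizontal axis, log scale) of the intergenic peaks in each of 11 gene lists (rows, with the number of peaks in parentheses); circles are upstream and triangles downstream, and the dotted line marks 50 kb. Synaptic vesicle genes lie between 3.12 and 119 kb, and adhesion genes reach 1482 kb.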

How the data were processed

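According to the study's methods, the authors aligned fastp-trimmed reads to mm10 (Bowtie2), discarded duplicates and reads with several hits (Sambamba), and called peaks at a q-value limit of 0.05 (MACS3), which were merged by bedtools and annotated by HOMER. Tool versions: not given in the sources used here. Per row, the deposited table holds positions, peak numbers and signed distances in bp. No count, signal or p-value was deposited in it, and the ChIP was not compared with its input again. Of 3043 peak numbers, 1110 have no row, and the table lists each gene once. Which peak of a gene was kept is unknown. Numbers were missing on the upstream side only of 105 intergenic peaks and on the downstream side only of 105. Library depth was not analysed here.

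Sequence was read from GRCm38.p6, whose coordinates are those of mm10, in 200 bp centred on each position, with RefSeq and GENCODE transcripts. Entrez numbers gave back 2 symbols listed as dates. Shares have Wilson 95% intervals and their differences Newcombe intervals. Motifs, on both strands, and other shares were compared by two-sided Fisher's exact tests, adjusted over the 25 motifs of each comparison or over the family of features, and GC content by two-sided permutation tests of the mean with 100000 resamples (Python 3.11.15, scipy 1.17.1). The threshold was 0.05. Besides the motifs spelled out in the text, the search used the E-box CAGCTG, the zinc finger element CCCCACC, the AP-1 factor site TGANTCA, the cyclic AMP response element TGACGTCA, the site AAGATGG for the factor YY1, the site ACAAAG for the SOX factors, the octamer ATGCAAAT for the POU factors, the site AGGTCA for the nuclear receptors, the site AGATAA for the GATA factors, the site CATTCCA for the TEAD factors and, by name, MEF2, NRF1, CTCF and the NFI palindrome. Both NeuroD E-boxes hold CATCTG, so these counts overlap. The grid is a description without test. The tests were tested on simulated data.

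Peaks, motifs and gene lists were chosen with earlier results of these data known. Genes were named by rule: the 12 nearest and 12 farthest peaks, up to 6 per list, the 10 with most NeuroD E-boxes, and the 5 largest groups. The AT-rich genes were named after their values were seen. Some genes the rule names are not reported here.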

Additional observations from a re-analysis of the deposited data

How the results depend on the processing

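Of 64 alternatives, 55 were counted as unchanged. For differences this meant the same direction and the same side of the threshold. For shares it meant a value within the interval of the main result, and for numbers of motifs called an equal or similar number. The NeuroD E-box share of intergenic peaks moved to 22.9% in windows of 100 bp and to 46.7% with the core CATCTG, both by construction, since the window or the site is shorter. The number of motifs called against intron peaks rose from 0 to 1 in windows of 100 bp (TAATTA) and to 1 in windows of 400 bp (MEF2). At a limit of 100 kb the difference in E-box share, near minus far, reversed to 0.126 points. Leaving out windows under 20% GC, chosen after the data were seen, ended the GC difference from introns (-0.661 points), brought the near minus far difference past the threshold (3.23 points) and reversed 2 differences that passed no threshold, GC upstream minus downstream (1.01 points) and the upstream share of plus minus minus strand genes (-0.165 points). The E-box share of the remaining peaks was 34.1%.

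No paired analysis was possible because the 1 merged table holds no value of a single animal. For the same reason no animal was left out. Nothing that rests on peak heights, widths or replicates was run. Peaks share a genome and an annotation, so p-values over peaks say nothing of the spread between the 2 animals. The 1110 peak numbers without a row enter none of these shares.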
